A study of Homo sapiens with 7 samples.

Results

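The 42 genes described here code for the machinery that copies DNA in S phase, from the proteins that mark replication origins to the enzymes that supply deoxynucleotides. They were chosen by name, as a list of 42 symbols, by a rule that used no measured value, although earlier results of these data were known when the list was drawn up. All 42 were found among the 23710 genes of the expression table, and all 42 passed the filter on low values, which left 12578 genes. The filter asked that the normalized count averaged over the 4 libraries reach 50, and the scarcest member, CCNE1, had a mean of 771.

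The cells were SNU398, an established human hepatocellular carcinoma line, exposed for 8 hours to a peptide at 30 µM. There was 1 RNA library for each of 4 peptides, named PEN, PEN-WT, PEN-MUT and PEN-FFW. PEN is penetratin, a short sequence that carries cargo into cells, and the names of the other peptides show that they share it. In the published study of these peptides, PEN-WT holds a segment of the transcription factor SALL4 that binds the chromatin protein RBBP4, PEN-MUT is a mutated control, and PEN-FFW is an altered form. No untreated library was used here. Where 4 values of a gene follow each other, their order is PEN, PEN-MUT, PEN-WT, PEN-FFW. The other 3 samples of the series, chromatin immunoprecipitations and their input, are not analysed here.

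Reads in genes above the table's floor numbered 27347377 for PEN-FFW, the shallowest library, and 40717633 for PEN-WT, the deepest. Of 12 liver and hepatocellular carcinoma markers 3 passed the filter, namely SALL4, GPC3 and ALB, while APOB, TTR, SERPINA1, TF, HNF4A, KRT8 and KRT18 were at the floor in all 4 libraries. Of 4 fibroblast markers 3 passed, and COL3A1 was at 72895 to 79779 normalized counts. PTPRC alone of 4 blood markers passed, at 298 to 373, and all 3 endothelial markers were at the floor. With 1 library per peptide there is no measure of the spread between cultures, so no test of a peptide was possible. The ± beside a difference is the standard error from counting reads only, and a 95% counting interval is built from it.

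DNA replication starts when the origin recognition complex, CDC6 and CDT1 load rings of MCM2 to MCM7 onto origins in G1. CDC45 and the GINS proteins turn each ring into an active helicase at the start of S phase, RPA coats the exposed single strands, and primase, the polymerases, the sliding clamp PCNA and its loader build the new strands. E2F factors, released when cyclin E and other kinase partners act on the RB protein, drive transcription of many of these genes. In proliferating tumour cells such as hepatocellular carcinoma these transcripts are commonly abundant, since they mark cycling cells. In RNA from a whole culture, fewer cells in S phase and less RNA per cell cannot be told apart.

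What the members share beyond their role was looked for in RefSeq promoters (GRCh38.p14), each 250 bases before to 50 bases after a start. A promoter was matched for 35 of the 42 members. Of the others, MCM4, MCM5, GINS4, POLD3, RPA2, RPA3 and CCNE2 are named only. The E2F words searched were TTTCCCGC, TTTGGCGC, TTTCGCGC and TTTGCCGC, on both strands. At least 1 of them lay in a promoter of 18 members (51.4%), against 6.89% of the 9162 tested genes with a promoter. Counted by promoter, a word lay in 41.9% of the members' 43 promoters. The share was 5% in promoters of tested genes and 3.31% in all 35116 RefSeq promoters of that length. A match is a description of letters and not a bound site. The windows listed here, each 40 bases on the strand of the gene, come from members at both ends of the PEN-FFW against PEN comparison, from MCM6, whose promoter holds the words most often, and from PCNA, the member of highest level. Capitals mark 1 E2F word or its reverse complement.

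RFC3: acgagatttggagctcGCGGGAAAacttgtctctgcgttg
MCM7: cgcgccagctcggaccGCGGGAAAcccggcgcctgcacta
CDT1: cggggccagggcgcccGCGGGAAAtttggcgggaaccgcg
LIG1: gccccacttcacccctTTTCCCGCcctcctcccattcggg
E2F1: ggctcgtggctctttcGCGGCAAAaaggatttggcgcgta
MCM6: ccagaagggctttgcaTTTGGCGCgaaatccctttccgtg
MCM6: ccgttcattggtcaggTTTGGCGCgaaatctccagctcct
PCNA: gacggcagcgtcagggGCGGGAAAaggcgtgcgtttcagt

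These windows lie at chr13:33818078-33818117 (RFC3, plus strand), chr7:100101561-100101600 (MCM7, minus), chr16:88803738-88803777 (CDT1, plus) and chr19:48170435-48170474 (LIG1, minus). The E2F1 window is at chr20:33686395-33686434 (minus), and it also holds the word TTTGGCGC, left in lower case. The MCM6 windows are at chr2:135876572-135876611 and chr2:135876510-135876549 (minus), and in each the word TTTGGCGC overlaps TTTCGCGC read on the other strand. The PCNA window is at chr20:5126658-5126697 (minus). RFC3, MCM7 and MCM6 lay under the median gene in PEN-FFW, and CDT1, LIG1 and E2F1 were high on that scale. Windows were shown only for members with a word, so their spread over both ends says nothing of the members without one. RRM2, the lowest member, and POLD1, among the highest, held no E2F word in their promoters. GINS3 and POLE, also at the ends, held a word for which no window is shown. Over the 18 members with an E2F word the median difference between PEN-FFW and PEN was -0.14, and over the 17 with a promoter but no word it was -0.15. The NF-Y word CCAAT lay in 21 members (60%) against 43.6% of tested genes. The CHR word TTTGAA, known from genes expressed in G2 and mitosis, lay in 1 member, RRM1, against 13.4% of tested genes.

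Levels were compared between genes per kilobase of transcript. In PEN the highest level was that of PCNA, the sliding clamp that tethers polymerases, with 6717 normalized counts per kb. MCM7 followed with 5516, and these were the first and second members in all 4 libraries. MCM3 (4085), RRM2 (4033) and FEN1 (3945) came next in PEN. The lowest levels were those of TYMS (638), POLA1 (457) and CCNE1 (424). RRM2, a subunit of ribonucleotide reductase, was the fourth highest in PEN and stood at rank 8 in each of the other libraries.

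**Figure D1:**
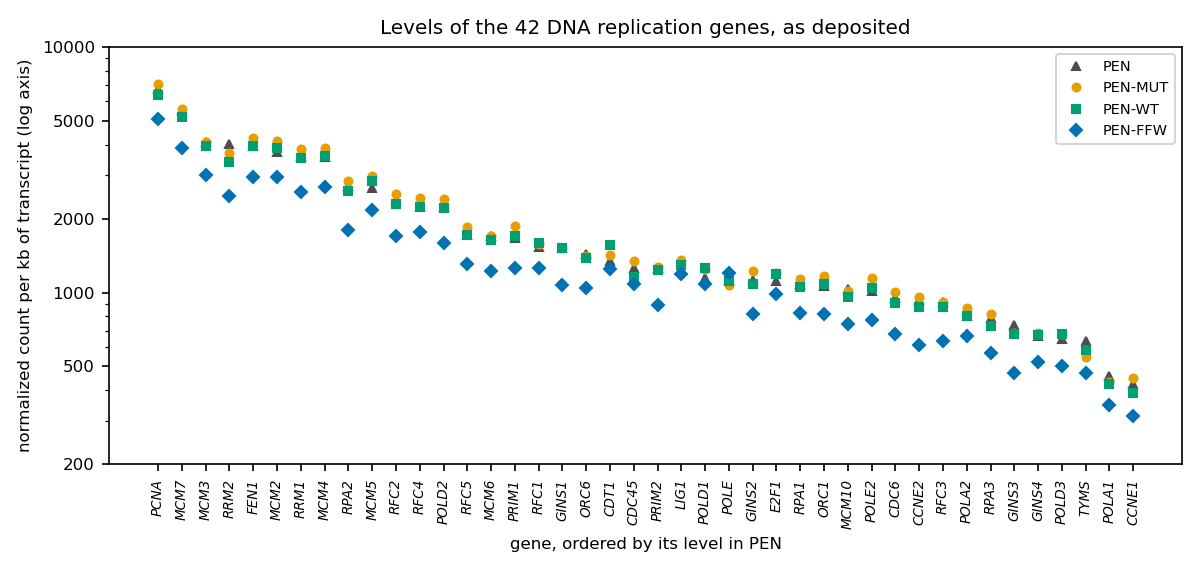
Normalized count per kilobase of transcript, as deposited, on a log axis for the 42 replication genes, ordered by their level in PEN; each point is 1 library, so there is no error bar. PCNA and MCM7 are highest in all 4 libraries, and the PEN-FFW diamond is the lowest point of 41 of the 42 genes, the exception being POLE.

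As deposited, PEN-FFW was the lowest library for 41 of 42 members, but the same held for 76% of all genes tested. In the deposited values the median tested gene stood at -0.27 in PEN-FFW compared with PEN, and at -0.30 compared with PEN-MUT or PEN-WT, on the log2 scale. The median gene of PEN-WT was at 0.03 and that of PEN-MUT at 0.02 from PEN. Each difference takes the median tested gene of the pair of libraries as its zero, and is log2(normalized count + 10) of the first minus the second, a scale that slightly understates the fold of low genes. On this scale PEN-FFW was the lowest library for 33 of 42 members, against 35.2% of tested genes, and the highest for 4, against 35.3%. These shares are over genes of all levels, and the members are more abundant than the median gene. PEN-MUT was the highest library for 25 members, against 22.8% of tested genes. The 9 members for which PEN-FFW was not lowest were CDC45, CDT1, E2F1, LIG1, POLA1, POLA2, POLD1, POLE and TYMS.

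The members took 0.680% of reads in PEN (95% Wilson interval 0.677% to 0.683%), 0.701% in PEN-MUT (0.698% to 0.704%), 0.672% in PEN-WT (0.670% to 0.675%) and 0.653% in PEN-FFW (0.650% to 0.656%). This share needs no scaling between libraries. It was highest in PEN-MUT and lowest in PEN-FFW, and the 4 intervals did not overlap. The intervals cover counting error only, and reads of amplified fragments are not independent molecules. In rpm, reads scaled to a fixed total for each library, the MCM2 to MCM7 hexamer took 2176, 2280, 2178 and 2059. The nucleotide supply genes RRM1, RRM2 and TYMS took 802, 783, 732 and 669 in the same order. The polymerase and primase genes took 956, 978, 969 and 1048 rpm, and 1 gene carried the high sum in PEN-FFW. POLE alone took 278, 263, 276 and 372 rpm, and the other 8 genes of that group 678, 715, 693 and 675. For those 8 genes the 95% Wilson intervals of PEN (669 to 686) and PEN-FFW (665 to 685) overlapped.

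**Figure D2:**
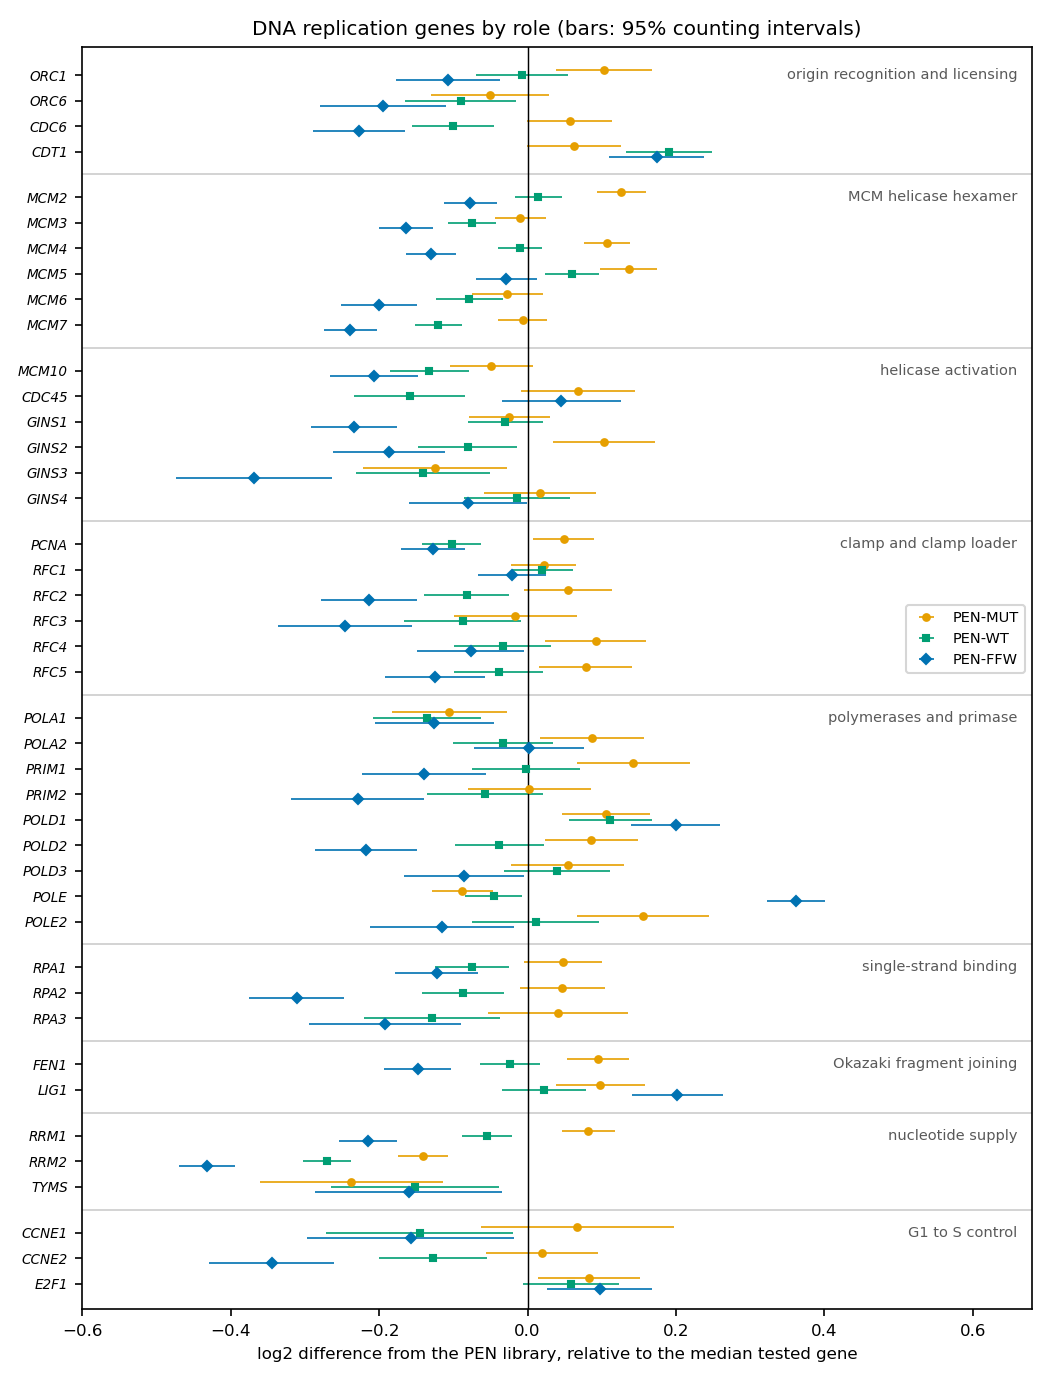
Replication genes by role (rows) and their log2 difference from PEN with the median tested gene as zero (horizontal axis). Circles show PEN-MUT, squares PEN-WT, diamonds PEN-FFW, and bars the 95% counting interval, there being 1 library for each peptide. PEN-FFW lies left of zero for 35 of 42 genes and reaches -0.43 at RRM2, while POLE stands alone at 0.36; CDT1, LIG1, POLD1, E2F1, CDC45 and POLA2, right of zero here, are below PEN as deposited.

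Among the genes that mark and license origins, CDT1 stood apart from the others. CDT1, which brings the MCM ring to the origin and is held back by geminin, had 3566, 3780, 4161 and 3335 normalized counts. The high library was PEN-WT, at 0.19 ± 0.03 from PEN and 0.14 ± 0.03 from PEN-MUT relative to the median gene, with no allowance for GC content. PEN-FFW was at 0.17 ± 0.03 from PEN relative to the median gene, but at -6.47% as deposited and at -0.04 relative to genes of like GC content. CDC6, its partner in loading, had 4354, 4597, 4148 and 3082 normalized counts, with PEN-FFW at -0.23 ± 0.03 from PEN and -0.28 ± 0.03 from PEN-MUT. ORC1 and ORC6, subunits of the origin recognition complex, stood at -0.11 ± 0.04 and -0.19 ± 0.04 in PEN-FFW against PEN.

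The 6 subunits of the MCM helicase were all below the median gene in PEN-FFW, at -0.24 to -0.03 from PEN and -0.23 to -0.15 from PEN-MUT. MCM2 had 12872, 14263, 13283 and 10116 normalized counts. MCM3 had 12533, 12632, 12150 and 9278 in that order. MCM4 had 14417, 15760, 14623 and 10925. As deposited, PEN-MUT was the highest library in MCM2, MCM3 and MCM4, and PEN-FFW the lowest. MCM5 had 9242, 10310, 9842 and 7511 normalized counts. MCM6 had 6377, 6351, 6168 and 4600. MCM7, whose introns host a cluster of microRNAs, had 13607, 13745, 12786 and 9560. The subunits fell into 2 sets between PEN-MUT and PEN, named after their values were seen. MCM2 (0.13 ± 0.02), MCM4 (0.11 ± 0.02) and MCM5 (0.14 ± 0.02) were above the median gene in PEN-MUT, while MCM3 (-0.01 ± 0.02), MCM6 (-0.03 ± 0.02) and MCM7 (-0.01 ± 0.02) were not. Against PEN, PEN-FFW was farthest down in MCM7 (-0.24 ± 0.02) and MCM6 (-0.20 ± 0.03), and the counting interval of MCM5 (-0.03 ± 0.02) included 0. The hexamer's median against PEN was -0.15, but it was 0.02 relative to genes of the same mean normalized count. Abundant genes as a whole were lower in PEN-FFW, with a Spearman correlation of -0.377 between mean count and difference over the 12578 genes tested.

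Of the genes that turn the loaded ring into a moving helicase, GINS3 was among the lowest members in PEN-FFW. GINS3, a subunit of the GINS tetramer, had 1616, 1503, 1496 and 1034 normalized counts. PEN-FFW was at -0.37 ± 0.05 from PEN, -0.24 ± 0.06 from PEN-MUT and -0.23 ± 0.05 from PEN-WT, so it was below each other library. GINS2 had 2943, 3208, 2843 and 2141 normalized counts, with PEN-FFW at -0.28 ± 0.04 from PEN-MUT. GINS1 (-0.23 ± 0.03), GINS4 (-0.08 ± 0.04) and MCM10 (-0.21 ± 0.03), which helps to start unwinding, were also below PEN in PEN-FFW. CDC45, the third part of the active helicase, had 2376, 2528, 2173 and 2032 normalized counts. Here PEN-WT and not PEN-FFW was the low library, at -0.16 ± 0.04 from PEN and -0.22 ± 0.04 from PEN-MUT. PEN-FFW was at 0.20 ± 0.04 from PEN-WT relative to the median gene, yet its deposited count was the lowest of the 4.

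PCNA and the 5 subunits of its loader, replication factor C, lay at -0.25 to -0.02 in PEN-FFW when compared with PEN. PCNA had 8571, 8997, 8155 and 6504 normalized counts. PEN-WT and PEN-FFW were at nearly the same place relative to PEN, -0.10 ± 0.02 and -0.13 ± 0.02, but relative to genes of the same mean normalized count PEN-FFW was at 0.04. RFC3 had 2102, 2109, 2021 and 1467 normalized counts and was the lowest of the loader genes in PEN-FFW (-0.25 ± 0.05). RFC1, the large subunit, varied least of all members, with a range of 0.04 over the 4 libraries. With PEN-FFW set against PEN, RFC1 was at -0.02 ± 0.02 and its interval included 0, while relative to genes of like GC content it was at 0.07. RFC2, RFC4 and RFC5 were at -0.21 ± 0.03, -0.08 ± 0.04 and -0.12 ± 0.03.

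The catalytic and accessory subunits of polymerase epsilon lay on different sides of the median gene in PEN-FFW. POLE, the catalytic subunit of the leading-strand polymerase epsilon, had 8825, 8426, 8733 and 9402 normalized counts. The first 3 libraries were close together and PEN-FFW was the highest, as deposited as well as relative to the median gene. The difference from PEN was 0.36 ± 0.02, from PEN-MUT 0.46 ± 0.02 and from PEN-WT 0.41 ± 0.02, and it was 0.30 relative to genes of like GC content in the comparison with PEN. As deposited the differences were 6.54% from PEN and 11.6% from PEN-MUT. POLE lies on the minus strand of chromosome 12, from 133200339 to 133263962 (GRCh37). POLE2, the accessory subunit of the same enzyme, had 1717, 1943, 1768 and 1313 normalized counts, with PEN-MUT highest (0.16 ± 0.05 from PEN) and PEN-FFW lowest (-0.11 ± 0.05 from PEN).

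For the lagging-strand polymerase delta, POLD1, its catalytic subunit, had 3923, 4286, 4331 and 3735 normalized counts. PEN-FFW was at 0.20 ± 0.03 from PEN relative to the median gene, but at -4.79% as deposited and at -0.05 relative to genes of like GC content. POLD2, an accessory subunit, had 3589, 3867, 3570 and 2556, with PEN-FFW at -0.22 ± 0.04 from PEN and -0.30 ± 0.04 from PEN-MUT. Both genes are rich in GC, with transcript GC contents of 64.8% for POLD1 and 59.4% for POLD2. POLD3 stood at -0.09 ± 0.04 from PEN. Primase, which lays the RNA primers, has a catalytic subunit, PRIM1, with 2374, 2661, 2422 and 1785 normalized counts. PRIM1 was at 0.14 ± 0.04 in PEN-MUT and -0.14 ± 0.04 in PEN-FFW against PEN. PRIM2, the large primase subunit, was at -0.23 ± 0.05 in PEN-FFW. POLA1, the catalytic subunit of polymerase alpha, was below PEN in all 3 other libraries: PEN-MUT at -0.11 ± 0.04, PEN-WT at -0.13 ± 0.04 and PEN-FFW at -0.13 ± 0.04. POLA2, its accessory subunit, was at 0.00 ± 0.04 in PEN-FFW against PEN.

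The single-strand binding protein RPA has 3 subunits, and RPA2 was the lowest of them in PEN-FFW. RPA2 had 4286, 4494, 4123 and 2861 normalized counts. PEN-FFW was at -0.31 ± 0.03 from PEN, -0.35 ± 0.03 from PEN-MUT and -0.22 ± 0.03 from PEN-WT. RPA1 and RPA3 were at -0.12 ± 0.03 and -0.19 ± 0.05 against PEN. Of the pair that completes lagging-strand fragments, FEN1, the nuclease that trims flaps, was at -0.15 ± 0.02 in PEN-FFW against PEN. LIG1, the ligase that seals the nick, had 3901, 4237, 4047 and 3720 normalized counts. PEN-FFW was at 0.20 ± 0.03 from PEN and 0.18 ± 0.03 from PEN-WT for LIG1 relative to the median gene, and at 0.10 from PEN relative to genes of like GC content, but at -4.62% from PEN as deposited.

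RRM2, the small subunit of ribonucleotide reductase and the rate-limiting source of deoxynucleotides in S phase, was the lowest member in PEN-FFW against PEN. It had 13140, 12094, 11128 and 8074 normalized counts, so PEN was the highest library and PEN-FFW the lowest. Compared with PEN, PEN-MUT was at -0.14 ± 0.02, PEN-WT at -0.27 ± 0.02 and PEN-FFW at -0.43 ± 0.02, and the 3 counting intervals did not overlap. As deposited PEN-FFW was at -38.6%. RRM1, the large subunit, had 11265, 12102, 11079 and 8046 normalized counts. Compared with PEN, PEN-MUT was at 0.08 ± 0.02, PEN-WT at -0.05 ± 0.02 and PEN-FFW at -0.21 ± 0.02 for RRM1. Both genes are abundant, and abundant genes as a whole were lower in PEN-FFW (Spearman -0.377 over the 12578 genes tested). The differences given for RRM2 and RRM1 make no allowance for this. Relative to genes of the same mean normalized count RRM1, RRM2 and TYMS were all 3 still lower in PEN-FFW than in PEN. TYMS, which makes thymidylate, had 1029, 884, 945 and 761 normalized counts, and PEN was again highest. Relative to the median gene its low library was PEN-MUT (-0.24 ± 0.06 from PEN), with PEN-WT at -0.15 ± 0.06 and PEN-FFW at -0.16 ± 0.06, and the 3 intervals overlapped. TYMS overlaps ENOSF1 and TYMSOS on the opposite strand, and the strand setting of the counting is not given in the sources used here, so its reads may include theirs. In the annotation 21 of the 42 members overlap some gene on the opposite strand, among them RPA3, CCNE2, RRM1, LIG1 and GINS4, and carry the same limit. On the same strand 11 members overlap another gene, among them POLA2, POLD1, PRIM1, PRIM2 and FEN1, and how reads shared by both were counted is not given in the sources used here.

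Cyclin E, the partner of CDK2 at the entry to S phase, is coded by CCNE1 and CCNE2. CCNE2 had 2505, 2577, 2342 and 1632 normalized counts. PEN-FFW was at -0.34 ± 0.04 from PEN, -0.36 ± 0.04 from PEN-MUT and -0.22 ± 0.04 from PEN-WT. CCNE1 had 828, 881, 764 and 613, with PEN-WT and PEN-FFW side by side at -0.15 ± 0.06 and -0.16 ± 0.07 from PEN. E2F1, the transcription factor that drives many of the members, had 2996, 3222, 3189 and 2657 normalized counts. Relative to the median gene E2F1 was slightly above PEN in all 3 other libraries, with PEN-MUT at 0.08 ± 0.03, PEN-WT at 0.06 ± 0.03 (an interval that included 0) and PEN-FFW at 0.10 ± 0.04, but in PEN-FFW it was at -11.3% as deposited and at -0.09 relative to genes of like GC content.

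PEN-FFW against PEN sets the altered peptide beside the carrier alone. The replication genes were slightly lower in PEN-FFW, with a median difference of -0.14 and quartiles of -0.21 and -0.08. Over all genes tested the quartiles were -0.15 and 0.21 around a median of 0. Of the 42 members 35 were below the median gene and 7 above, where all genes divide at 50%. A difference of at least 1.2-fold (0.263 on the log2 scale) was reached by 4 members on the lower side, RRM2, GINS3, CCNE2 and RPA2, against 9.87% of genes tested. On the higher side 1 member, POLE, reached it, against 20.8%. The members past 1.2-fold were thus about as common below, and rarer above, than among all genes. Either way, 5 members reached it, against 30.7%. Below the median gene by more than their own 95% counting interval were 33 members, against 30.9% of genes tested, and above it 5, against 30.6%. This count grows with read depth per gene, and the members' median was 3588 normalized counts against 1091 for all genes tested. The members just inside and outside the 1.2-fold mark on the lower side were RPA2 (-0.31) and RFC3 (-0.25). Relative to genes of the same mean normalized count the median of all 42 was -0.06, with 29 members below and 13 above.

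PEN-FFW against PEN-MUT, the comparison with the mutated control, gave a median farther from 0. The median was -0.20, and 36 members were below the median gene and 6 above. At least 1.2-fold lower were 9 members, against 6.27% of genes tested, and 1 was higher (POLE), against 19.8%, or 10 either way, against 26%. The 9 were CCNE2 (-0.36 ± 0.04), RPA2 (-0.35 ± 0.03), POLD2 (-0.30 ± 0.04), RRM1 (-0.29 ± 0.02), RRM2 (-0.28 ± 0.02), GINS2 (-0.28 ± 0.04), CDC6 (-0.28 ± 0.03), PRIM1 (-0.28 ± 0.04) and POLE2 (-0.26 ± 0.05). The next member, RFC2, was at -0.26 and just outside the mark. Several of these lie close to the threshold. When the median was taken only over genes averaging 500 normalized counts or more, 2 members were lower by 1.2-fold, against 3.09% of those 8761 genes. POLE (0.46), CDT1 (0.12 ± 0.03) and LIG1 (0.11 ± 0.03) were the 3 highest relative to the median gene, though CDT1 and LIG1 were at -11.8% and -12.2% as deposited. Beyond their counting interval 33 members were below, against 28.8% of genes tested, and 4 above, against 29%. Relative to genes of the same mean normalized count the median was -0.08, with 31 members below and 11 above.

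PEN-WT carries the unaltered SALL4 segment, and its replication genes lay closer to both controls. Against PEN the median was -0.06, with 33 members below the median gene and 9 above, or 27 and 15 as deposited. Of all members 1 was at least 1.2-fold lower, RRM2, against 5.92% of genes tested, and 0 were higher, against 9.29%, with 15.2% either way. The next lowest were CDC45 (-0.16 ± 0.04) and TYMS (-0.15 ± 0.06). The 3 highest were CDT1 (0.19 ± 0.03), POLD1 (0.11 ± 0.03) and MCM5 (0.06 ± 0.02). These values make no allowance for GC content. Over all genes the median of 20 GC bins climbed from -0.07 to 0.15 in PEN-WT against PEN, so GC-rich genes as a whole were higher there. For 17 of 42 members the counting interval included 0, while 22 were below by more than it, against 25.4% of genes tested, and 3 above, against 23.1%. Against PEN-MUT the median was -0.10, with 36 members below and 6 above, and 0 members were past 1.2-fold in either direction, against 9.72% of genes tested (8.36% higher and 1.37% lower). Beyond their counting interval 27 were below, against 19.5%, and 2 above, against 19.7%. The lowest here were CDC45 (-0.22 ± 0.04), CCNE1 (-0.20 ± 0.07) and GINS2 (-0.17 ± 0.03), and the highest CDT1 (0.14 ± 0.03), TYMS (0.09 ± 0.06) and POLE (0.05 ± 0.02). PEN-WT was below both PEN and PEN-MUT for 30 members, against 36.3% of genes tested. Relative to genes of the same mean normalized count the PEN-WT median was -0.02 against PEN, with 26 members below and 16 above. Against PEN-MUT it was -0.05, with 32 below and 10 above. The comparisons with PEN share that library, as those with PEN-MUT share theirs.

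PEN-MUT against PEN compares the controls with each other without PEN-WT or PEN-FFW. The median was 0.05, with 30 members above the median gene and 12 below. No member was past 1.2-fold (0 of 42), against 9.42% of genes tested (4.06% higher and 5.36% lower). Beyond their counting interval 17 were above, against 17.9%, and 5 below, against 19.4%. POLE2 (0.16 ± 0.05), PRIM1 (0.14 ± 0.04) and MCM5 (0.14 ± 0.02) were highest, and TYMS (-0.24 ± 0.06), RRM2 (-0.14 ± 0.02) and GINS3 (-0.12 ± 0.05) lowest. The median was about as far from 0 as that of PEN-WT against PEN, with the opposite sign.

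PEN-FFW against PEN-WT sets the altered peptide beside the unaltered one. The median was -0.10, with 35 members below the median gene and 7 above. POLE was the 1 member at least 1.2-fold higher, against 14.2% of genes tested, and 0 were lower, against 2.7%, with 16.9% either way. Beyond their counting interval 26 were below, against 23.6%, and 4 above, against 24.5%. The 3 lowest were GINS3 (-0.23 ± 0.05), RPA2 (-0.22 ± 0.03) and CCNE2 (-0.22 ± 0.04). After POLE the highest were CDC45 (0.20 ± 0.04) and LIG1 (0.18 ± 0.03), both of which were below PEN-WT as deposited. For 12 members, among them PCNA, CDT1 and E2F1, the counting interval included 0. Relative to genes of the same mean normalized count the median was -0.04, with 29 members below and 13 above.

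**Figure D3:**
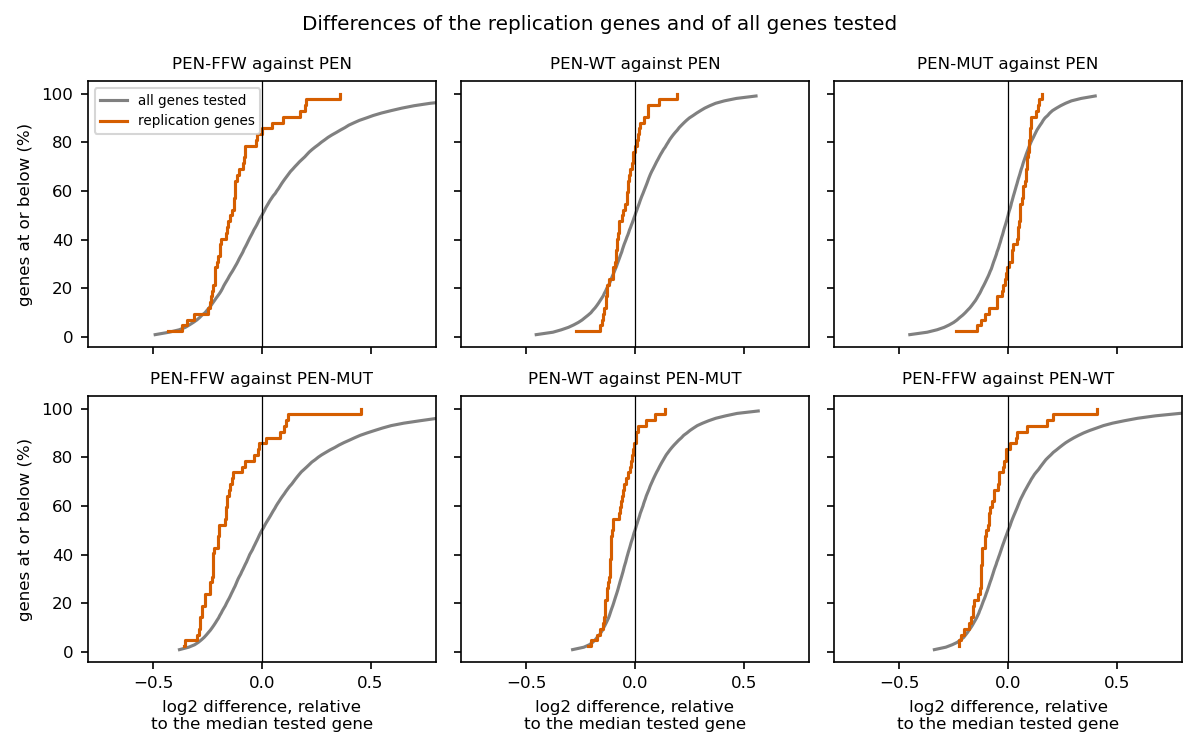
Cumulative share of genes (vertical axis, %) at or below each log2 difference relative to the median tested gene (horizontal axis, the farthest tails not drawn), for the 42 replication genes (orange steps) and all genes tested (grey), in each of the 6 pairs of libraries. The orange steps lie left of the grey line at the zero mark in 5 panels, with medians of -0.20 to -0.06, and right of it in PEN-MUT against PEN (0.05), and they lack the long upper tail of all genes.

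No member reached 1.5-fold in any of the 6 comparisons. Of genes tested, 7.68% did so in PEN-FFW against PEN, 7.33% against PEN-MUT and 4.2% against PEN-WT. The share was 1.2% in PEN-WT against PEN, 0.914% in PEN-WT against PEN-MUT and 0.564% in PEN-MUT against PEN. Over the 4 libraries a member ranged by a median of 0.23, against 0.24 for all genes tested and 0.20 for the 7530 genes at least as abundant as the scarcest member. The widest ranges were those of POLE (0.45), RRM2 (0.43), GINS3 (0.37), CCNE2 (0.36) and RPA2 (0.36). The narrowest were those of RFC1 (0.04), GINS4 (0.10) and E2F1 (0.10).

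Ratios of reads between members of 1 library do not depend on how libraries are scaled, and were taken for pairs of partners chosen after their values were seen. They are compared between libraries, not as levels of the genes. POLE reads per POLE2 read were 5.14 in PEN (95% counting interval 4.90 to 5.39), 4.34 in PEN-MUT (4.13 to 4.56), 4.94 in PEN-WT (4.72 to 5.17) and 7.16 in PEN-FFW (6.78 to 7.57). PEN-FFW was above and PEN-MUT below the other libraries, with intervals that did not overlap those of PEN and PEN-WT. POLD1 reads per POLD2 read were 1.09, 1.11, 1.21 and 1.46 in the order PEN, PEN-MUT, PEN-WT, PEN-FFW. LIG1 reads per FEN1 read were 0.490, 0.491, 0.506 and 0.625. In each of these pairs PEN-FFW was the high library. The ratios make no allowance for GC content or transcript length of the partners. Over all genes the PEN-FFW difference from PEN rose with both (Spearman 0.364 and 0.191), and their part in the ratios was not tested.

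The licensing factor CDT1 was also set against GMNN, the gene of its inhibitor geminin. CDT1 reads per GMNN read were 1.55 in PEN (1.47 to 1.62), 1.55 for PEN-MUT (1.47 to 1.63), 1.88 for PEN-WT and 2.03 for PEN-FFW (1.92 to 2.15). Both PEN-WT and PEN-FFW were above both controls. The same order held for CDT1 per CDC6, at 0.819, 0.822, 1.00 and 1.08. Neither CDT1 ratio makes allowance for GC content. RRM2 reads per RRM1 read were 1.17 in PEN (1.14 to 1.19) and 0.999, 1.00 and 1.00 in the others, so the library set apart was PEN. For the helicase pair MCM3 and MCM5 PEN was again highest, with 1.36 in PEN (1.32 to 1.39) and 1.23, 1.23 and 1.24 in the others. TYMS per RRM1 was lowest in PEN-MUT, at 0.0730 against 0.0853 to 0.0945. RPA2 per RPA1 was 0.815, 0.815 and 0.808 in the first 3 libraries and 0.715 in PEN-FFW, and CDC45 per GINS2 was 0.807, 0.788, 0.764 and 0.949.

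**Figure D4:**
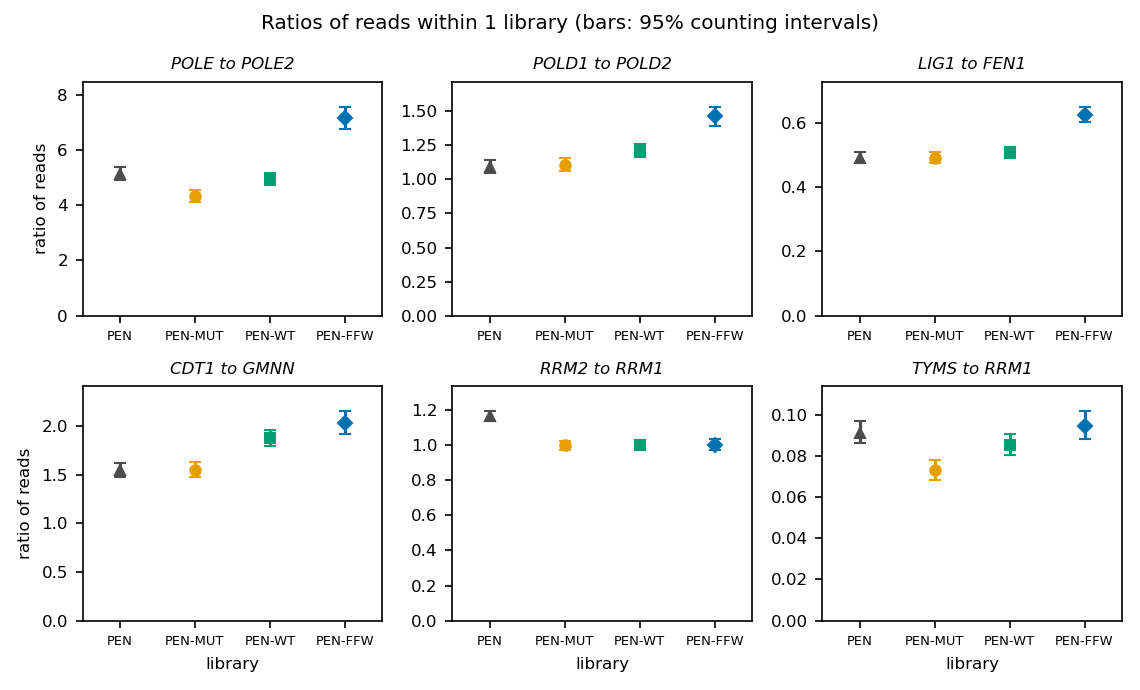
Ratio of reads between 2 partner genes within each library (vertical axes, linear from 0), with 95% counting intervals as bars and 1 library per peptide. PEN-FFW is highest for POLE to POLE2 (7.16), POLD1 to POLD2 (1.46), LIG1 to FEN1 (0.625) and CDT1 to GMNN (2.03), PEN is highest for RRM2 to RRM1 (1.17), and PEN-MUT is lowest for TYMS to RRM1 (0.0730).

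Across the 42 members the Spearman correlation between GC content and the difference of PEN-FFW from PEN was 0.482, and 0.452 without POLE, against 0.364 over the 12103 tested genes with a GC content. These are correlations across genes of the same pair of libraries, and genes are not replicates. The members' median GC content, 47.3% (34.6% to 64.8%), was close to the 48.3% of all tested genes. In 3 parts of 14 members from lowest to highest GC content, the median difference was -0.20, -0.15 and -0.05. Relative to genes of like GC content these became -0.13, -0.12 and -0.12, and 38 of 42 members were below zero. The members above zero on that scale were POLE (0.30), LIG1 (0.10), RFC1 (0.07) and CDC45 (0.06). Over all genes the median of 20 GC bins climbed from -0.08 to 0.25, and CDT1, POLD1 and E2F1, above the median gene, were at -0.04, -0.05 and -0.09 relative to genes of their GC content. For PEN-WT against PEN the correlation was 0.286 across members and 0.358 across all genes, and for PEN-MUT 0.307 and 0.089. The part of GC content in these differences was not tested.

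**Figure D5:**
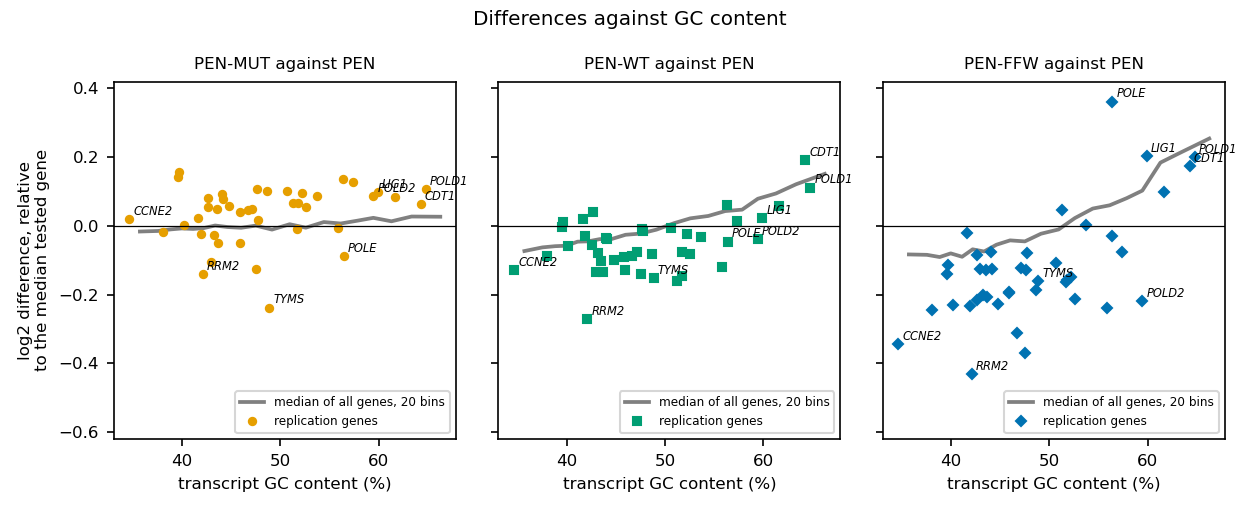
The 42 replication genes by transcript GC content in % (horizontal axis) and log2 difference from PEN with the median tested gene as zero (vertical axis), with the median of all tested genes in 20 bins of GC content as a grey line. In PEN-FFW the line climbs from -0.08 to 0.25 and 38 of 42 genes lie below it, while POLE lies 0.30 above; CDT1 and POLD1 lie above zero but just under the line.

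Other genes of the pathway were read from lists by function. Of 14 other origin licensing and firing genes, whose median was -0.15 for PEN-FFW against PEN, 3 were higher by 1.2-fold or more and 1 lower, shares near those of all genes tested (20.8% higher and 9.87% lower). The median was -0.07 relative to genes of like GC content. The higher 3 were TICRR (0.48 ± 0.04), which recruits CDC45, the helicase RECQL4 (0.42 ± 0.02) and the kinase subunit DBF4B (0.30 ± 0.06), and all 3 were also at 0.30 to 0.50 from PEN-MUT. As deposited they were at 2164 against 1865 normalized counts for TICRR, 6167 against 5554 for RECQL4 and 1066 against 1045 for DBF4B. MCMBP, which binds MCM subunits, was the 1 lower gene (-0.26 ± 0.02), and GMNN was at -0.22 ± 0.04. Of 23 other fork and Okazaki genes 1 was higher, the clamp loader subunit CHTF18 (0.41 ± 0.04), and 3 were lower, POLE3 (-0.51 ± 0.04), TIPIN (-0.38 ± 0.06) and DSCC1 (-0.30 ± 0.04), again beside 20.8% and 9.87% of all genes tested. The median of this list was -0.03, and 0.01 relative to genes of the same mean normalized count. POLE3, a small accessory subunit of polymerase epsilon, had 3903, 3477, 3502 and 2269 normalized counts, on the side of POLE2 and opposite to POLE.

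Nucleotide synthesis genes outside the 42 had a median below that of all genes. Of 24 listed, 23 were tested and their median was -0.20 in PEN-FFW and -0.12 in PEN-WT against PEN, with 7 at least 1.2-fold lower and 0 higher in PEN-FFW, against 9.87% and 20.8% of all genes tested. Relative to genes of the same mean normalized count the PEN-FFW median was -0.11. The purine synthesis gene GART was at -0.43 ± 0.02 in PEN-FFW, and DHODH, of pyrimidine synthesis, at -0.36 ± 0.07. Both were also below PEN in PEN-WT, at -0.31 ± 0.02 and -0.38 ± 0.06, and in PEN-MUT, at -0.14 and -0.21. The 30 genes that control the passage from G1 to S had medians of -0.13 in PEN-FFW and -0.06 in PEN-WT. The former was -0.05 relative to genes of the same mean normalized count. Among them MYC was low in all 3 libraries against PEN, with PEN-FFW at -0.73 ± 0.03, PEN-WT at -0.68 ± 0.03 and PEN-MUT at -0.51. Inhibitors of CDK2 lay on both sides. CDKN1A was low in all 3, with PEN-FFW at -0.73 ± 0.15, PEN-WT at -0.54 ± 0.13 and PEN-MUT at -0.48, while CDKN1B was high, at 0.36 ± 0.04, 0.34 ± 0.04 and 0.28. For these 3 genes PEN was the highest or the lowest of the 4 libraries.

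Histone and mitosis genes, which serve later and parallel events of the cell cycle, were read in the same way. The 52 tested of 73 histone genes, which are made with the DNA, had a median of -0.19 when PEN-FFW was compared with PEN, while PEN-WT stood at 0.06 and PEN-MUT at 0.13. In PEN-FFW 14 of them were at least 1.2-fold lower and 0 higher, against 9.87% and 20.8% of all genes tested. Against PEN-MUT 39 were lower, with a median of -0.33, where 6.27% of all genes were. Relative to genes of the same mean normalized count these PEN-FFW medians were -0.09 against PEN and -0.24 against PEN-MUT. Relative to genes of like GC content they were -0.28 and -0.40, over the 49 histone genes with a GC content. Histone transcripts share sequence, so their counts are uncertain. The 36 mitosis genes had a median of -0.04 in PEN-FFW, which turned to 0.02 relative to genes of like GC content and 0.05 relative to genes of the same mean normalized count, and medians of 0.06 and 0.09 in PEN-WT and PEN-MUT. In PEN-FFW 3 were higher and 3 lower by 1.2-fold, against 20.8% and 9.87% of all genes tested. MKI67, a marker of cycling cells, was at 0.74 ± 0.01 in PEN-FFW, and CDK1 at -0.29 ± 0.02. Of 8 nuclear RNA and RNA quality markers 7 were tested, with a median of 0.12 in PEN-FFW against PEN, 4 above the median gene and 3 below. KCNQ1OT1 (1.66), NEAT1 (1.08) and MALAT1 (0.61) were highest, and SNHG1 (-0.23), GAS5 (-0.21) and SNHG5 (-0.13) were below. KCNQ1OT1 is antisense to KCNQ1, whose reads cannot be told from its own without the strand. The part of these RNAs in the members' differences was not tested.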

How the data were processed

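RNA was measured in 4 libraries of SNU398 cells, 1 per peptide. The authors deposited 1 table of log2 values for 23710 genes. Per the submitters' processing notes, STAR 2.4.0i and featureCounts 1.5.0-p1 were used with hg19. Sources used here do not give the gene models, strand setting or normalization method. The lowest deposited log2 value in each library was 2.32, the log2 of 5, and after the log was undone 100% of higher values were whole multiples, within 0.1 read, of 1 factor per library (PEN 0.840, PEN-MUT 1, PEN-WT 0.776, PEN-FFW 0.923). The deposited values are thus log2 of reads times a factor, here called normalized counts, and dividing by the factor gave 27347377 to 40717633 reads per library.

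A gene was tested if its normalized counts averaged 50 or more (12578 genes, 53%). Differences used a pseudocount of 10 and were taken relative to the median tested gene. Counting errors followed the Poisson law. No test was possible with 1 library per peptide, so members are described by counts and medians beside all genes tested, with 1.2-fold as the mark and 1.5-fold as an alternative. The calculation was tested on simulated data. The members, lists and rules were chosen with earlier results of these data known. All members are described by role. Counts in all 4 libraries are given for the 6 lowest and 6 highest in PEN-FFW against PEN, the 3 lowest and 3 highest in the other comparisons, MCM2 to MCM7, RRM1, RRM2, TYMS, PCNA, CCNE1, CCNE2 and E2F1, and outside that rule for CDC6. Of the other lists at most 6 genes are named, those farthest from PEN in PEN-FFW.

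GENCODE 44 on GRCh37 gave transcript length, GC content and positions. Of the table's genes 20574 were found there under the same symbol and 1572 under an earlier one, while 1564 were not. Python 3.11.15, numpy 2.4.6, pandas 2.3.3 and scipy 1.17.1 were used.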

Additional observations from a re-analysis of the deposited data

How the results depend on the processing

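All 6 medians kept their sign in each setting tried. As deposited, with no centring, the median difference was -0.414 for PEN-FFW against PEN, -0.495 against PEN-MUT and -0.397 against PEN-WT, and the number of members at least 1.2-fold apart was 36, 37 and 37, against 5, 10 and 1 relative to the median gene. As deposited 51.3%, 55.3% and 58.5% of genes tested were lower by that much too. With no filter on low values the medians were -0.414, -0.495 and -0.352 and the numbers 36, 37 and 35, all on the lower side. Of all 23710 genes 29%, 31.2% and 27.1% were lower by that much, and 10%, 9.86% and 7.79% higher. In this setting many untested genes sit at the floor in both libraries and set the median gene near 0. Relative to genes of the same mean normalized count the medians were -0.06 against PEN and -0.084 against PEN-MUT. In the latter 3 members were apart, 1 higher and 2 lower, against 17% and 7.67% of genes tested. For PEN-FFW against PEN-MUT the number was also 3, again 1 higher and 2 lower, with a minimum mean of 500, against 14% and 3.09% of genes. It was 3 as well, divided in the same way, when scaled to the library's reads, against 23.1% and 3.02%. That last alternative was chosen after seeing the data. For PEN-WT against PEN the 1 member, RRM2, lies near the mark, and the number was 0 in every alternative except a pseudocount of 1. At 1.5-fold all 6 numbers were 0. Both other comparisons had 0 members in all settings. No paired analysis was possible because each peptide had 1 library, and no replicate could be left out. At the members' depth the counting error was 0.015 to 0.073 on the log2 scale. The variation between cultures is unknown, and it may exceed many of the differences given.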

Other observations

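POLE was the one member highest in PEN-FFW on each scale, and its neighbours were read after its values were seen. Of 7 neighbouring genes on chromosome 12 (GRCh37), P2RX2, an ATP-gated channel gene on the opposite strand 1365 bases beyond the end of POLE (133195362 to 133198974), had 40.3, 43.0, 62.9 and 154 normalized counts, with PEN-FFW at 1.98 ± 0.20 from PEN. PXMP2, 211 bases from the start of POLE and also on the opposite strand, was at -0.06 ± 0.08. PGAM5 was at -0.44 ± 0.02, FBRSL1 at 0.18 ± 0.04, ANKLE2 at 0.12 ± 0.03 and GOLGA3 at 0.14 ± 0.02, and LRCOL1 was at the floor in all 4 libraries. P2RX2 passed the filter on low values only through PEN-FFW, where it is high, so the size of its difference supports nothing. The other neighbours did not share 1 direction relative to the median gene.

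The members had a shorter median transcript than all genes tested, at 2682 bases against 3405, and a higher median level, at 3588 normalized counts against 1091. Their difference between PEN-FFW and PEN had little relation to abundance among themselves, with a Spearman correlation of 0.088 across 42 members against -0.377 across 12578 genes tested. With transcript length the correlation was 0.272 across members, 0.217 without POLE, the longest of them at 7823 bases, and 0.191 across 12103 genes. These correlations describe genes of the same 2 libraries and are no test.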
